A study of Homo sapiens with 6 samples.

Results

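The clustered protocadherins were read in RNA-seq of HAP1 cells with and without HELLS. A gene was taken as a member when its Ensembl identifier in the deposited count table carried a PCDHA, PCDHB or PCDHG cluster symbol. This gave 60 of the 60483 listed genes, 16 in the alpha, 20 in the beta and 24 in the gamma cluster, between chr5:140786136-141512977 on GRCh38 (727 kb). They comprised 48 genes with a variable first exon of the alpha, beta or gamma A and B type, 5 C-type genes, 6 pseudogenes and the antisense gene PCDHB1-AS1.

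The study asked how loss of HELLS, a SNF2-family chromatin remodeler, affects cells exposed to alkylating drugs, and RNA-seq was used there to look for changed gene expression. HAP1 (C631) is a near-haploid line derived from a chronic myelogenous leukemia, and its 3 libraries were labelled wild type under normal growth. The 3 HELLS KO libraries came from HAP1 cells with a single-base insertion in exon 3 of HELLS, also under normal growth and with no drug. The HELLS KO line is a single purchased clone, so that clone and genotype cannot be told apart. The libraries were described as biological replicates, without saying that they came from separate cultures, so p-values measure the spread between these libraries.

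Clustered protocadherins are cadherin-like surface proteins best known in neurons, where combinations of isoforms on the membrane bind the same combination on another cell and so separate self from non-self. Each alpha and gamma gene has its own large first exon, coding the extracellular, membrane-spanning and proximal cytoplasmic parts, which is spliced to 3 constant exons shared by its cluster. Beta genes are single-exon genes with no constant part. Most variable promoters are chosen at random in each neuron, with CTCF and cohesin looping the chosen promoter to an enhancer, and those not chosen carry DNA methylation. C-type promoters are regulated apart from this choice and are used more widely.

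The constant exons limit what a gene count can say. The alpha constant exons covered 59, 89 and 2721 bases and were annotated to 15 members, and those of gamma covered 59, 89 and 2029 bases and were annotated to 22 members. PCDHA13, whose exons include the alpha constant exons, had counts of 0, 0 and 2 in the HAP1 libraries, while PCDHAC2 of the same cluster had 146, 92 and 209. Reads in the constant exons were thus not added to every member, and the levels below come mainly from bases that are not common to the cluster. How reads over several genes and strands were treated in counting is not given in the sources used here.

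RefSeq promoters on GRCh38.p14 were matched for 47 of the 60 members, and the short stretch around the start site that holds CGCT is shown for those on which the results turn. CGCT on either strand was present in 45 of 47 (95.7%) of these 250-base windows and in 64.8% of 35116 RefSeq promoters. The stretches below are 24 bases on the plus strand, and the capitals mark CGCT. All lie before the start other than that of PCDHB5, which runs past it. They run from chr5:141094552-141094575 for PCDHB2 to chr5:141475888-141475911 for PCDHGC3.
PCDHB2: cggggtggCGCTgcagccttagaa
PCDHB5: cctggtggCGCTgcaggctaagag
PCDHB10: cacggtggCGCTgcaggctaaaga
PCDHB12: cgtggtggCGCTgcaggataatat
PCDHB15: catggtggCGCTgcaggctaaggc
PCDHGA2: ctgagcgtCGCTgttgaccaccta
PCDHGA7: cacagcgcCGCTgttcaccaacca
PCDHGB4: ctgggcgcCGCTgttggccaaagt
PCDHGB5: ctgggcgcCGCTgttggccaaagt
PCDHGB6: ctgggcgcCGCTgtcggccagtgc
PCDHGA10: ctgagcgcCGCTgttcacctacta
PCDHGC3: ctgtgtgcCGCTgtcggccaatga

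The beta stretches share GGTGGCGCT, and the gamma stretches share CGCTGT. On both strands of windows from 250 bases before to 50 after the start, GGTGGCGCT was found in 13 of 14 beta promoters (92.9%, all but PCDHB1), in none of 13 alpha and 20 gamma promoters, and in 0.501% of all. CGCTGT, which overlaps CGCT, was found in 17 of 20 gamma promoters (85%), 7 of 13 alpha promoters (53.8%), 1 of 14 beta promoters (7.14%) and 11.2% of all. TGTCGCT was found in 10 of 13 alpha promoters (76.9%), 1 of 14 beta promoters (7.14%), 3 of 20 gamma promoters (15%) and 1.76% of all. These letters were chosen after the promoters had been read, and a match is a description of sequence only. The stretch of PCDHGB4 was the same as that of PCDHGB5, and their windows were identical at 174 of 247 aligned bases (70.4%), the highest of the gamma B pairs.

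Total counts were 14286431, 13641237 and 24126357 for the HAP1 libraries, and those of HELLS KO were 14115255, 14859360 and 24400187. Replicate 3 of each genotype was the deepest and carried a batch label that the others lacked. A count of 0 allows up to 3 counts, or 0.123 to 0.218 CPM (counts scaled to library size), for counting error only. Low counts were even more often than odd, as when both mates of a read pair are counted. In that case counts are not independent, and the limit is 6 counts, or 0.246 to 0.436 CPM. HELLS itself had HAP1 counts of 1444, 1488 and 3671 and HELLS KO counts of 1410, 1375 and 2802. Its log2 difference was -0.24 ± 0.18 (SE), with an adjusted p of 1, and a single-base insertion need not remove the transcript, so that this count does not test the label. Throughout, log2 differences are HELLS KO minus HAP1, as fitted over all genes by edgeR (quasi-likelihood F test, p-values adjusted by Benjamini-Hochberg). Their SE was derived from the test, as the absolute log2 difference divided by the square root of the F statistic. Calls needed an adjusted p under 0.05 together with a change of at least 1.

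In HELLS KO cells 1 alpha C-type gene fell, while 3 beta genes and 4 gamma A and B genes rose. Of 60 members, 59 had a count and 35 passed the filter on low counts: 2 alpha, 15 beta and 18 gamma. Of these 35, 7 rose and 1 fell, where 1.50% of the 17925 genes tested rose and 0.720% fell. Same-numbered libraries deviated together, although for replicates 1 and 2 the crossed numbers did so as well. With the replicate number as a block 12 members rose and 3 fell, against 2.03% and 1.49% of all genes. All 8 members called without the block were called with it. DESeq2 called 12 higher and 4 lower among members, against 1.87% and 1.06% of 23985 genes. Of the 35, 13 passed the filter through HELLS KO alone, meaning that all 3 HELLS KO libraries reached its CPM level and not all 3 HAP1 libraries. Some of the 13, such as PCDHB6, had some HAP1 libraries at that level too. This route favours higher HELLS KO values, and 5 of the 7 risen members were of this kind. Another 3 passed through HAP1 alone in the same sense, among them PCDHAC2, the one member that fell. The plot of member levels shows all members other than PCDHB1-AS1, including those below the filter.

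**Figure D1:**
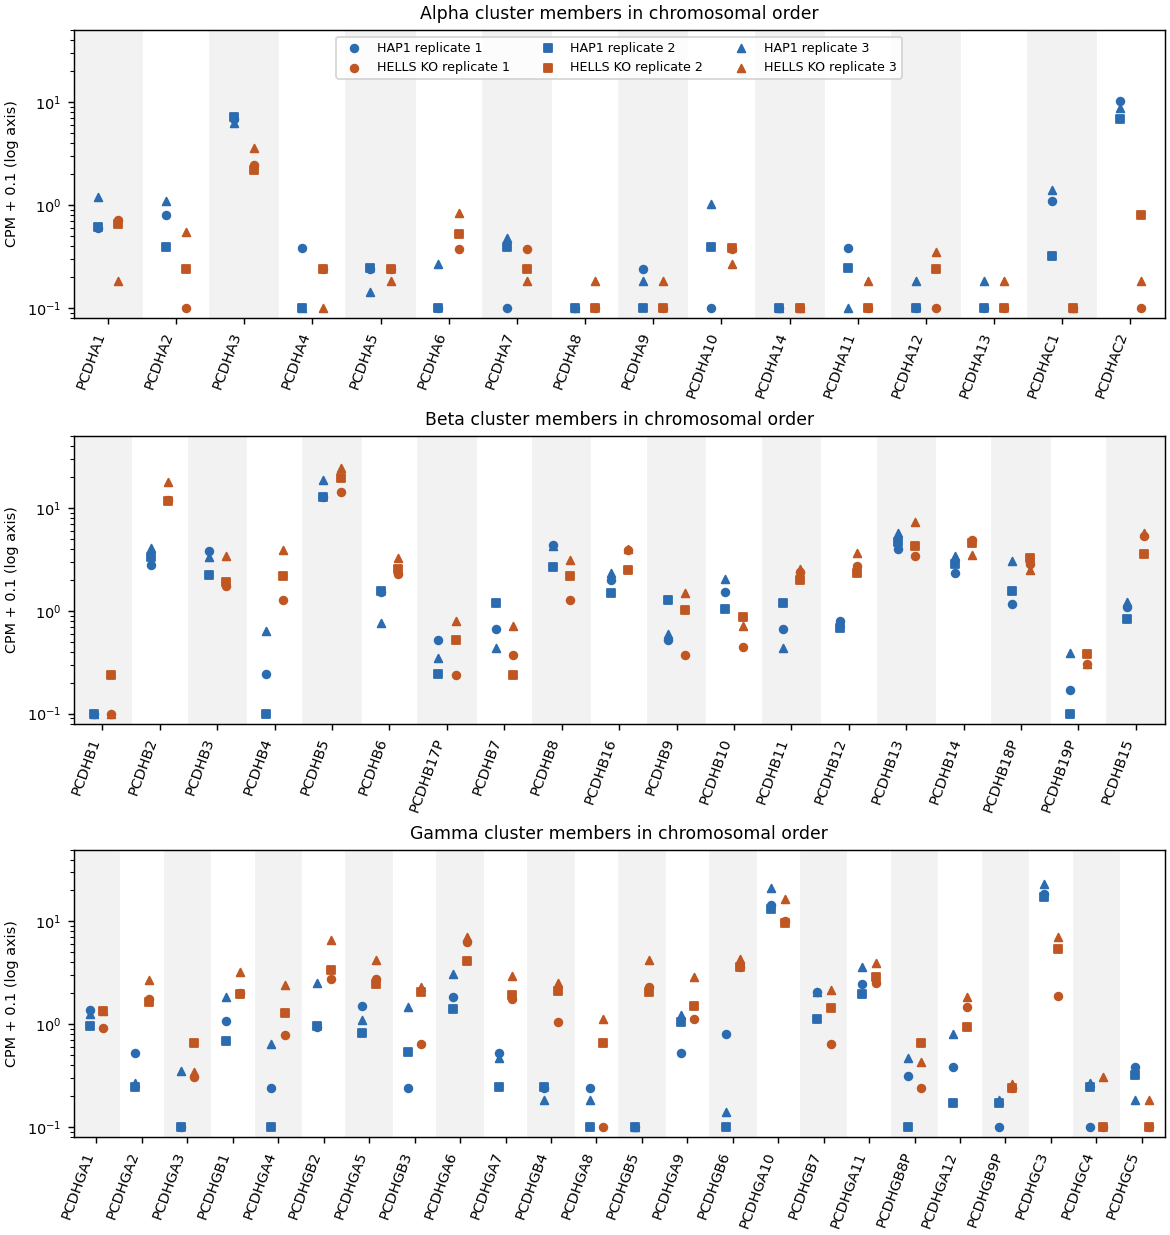
Level of each clustered protocadherin in every library, as CPM + 0.1 on a log axis, in chromosomal order for the alpha, beta and gamma clusters. Blue marks are the 3 HAP1 libraries and orange marks the 3 HELLS KO libraries, and a mark at 0.1 is a count of 0. PCDHAC2 drops from a HAP1 mean of 8.56 to 0.261 CPM, and PCDHGB5, at 0 in all HAP1 libraries, reaches a mean of 2.76 CPM.

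Within the alpha cluster PCDHAC2 fell, and the most abundant variable gene, PCDHA3, missed the threshold without the replicate block and fell with it. PCDHAC2, a C-type alpha protocadherin known for the spacing of serotonergic axons, had HAP1 counts of 146, 92 and 209 and HELLS KO counts of 0, 10 and 2. PCDHAC2 fell by 5.13 ± 0.81 (SE) on the log2 scale (adjusted p = 0.020). It passed the filter through HAP1 alone, with every HELLS KO library below the filter level. Every HELLS KO library therefore had to lie below every HAP1 library. PCDHAC1, the other alpha C-type gene, had HAP1 counts of 14, 3 and 31 and HELLS KO counts of 0, 0 and 0. It did not pass the filter. Its summed level was at least 16.4-fold lower against a floor of 3 counts over the HELLS KO group, or 8.19-fold against 6 counts, and it was called lower by DESeq2 (adjusted p = 0.0024) and by edgeR without the filter (adjusted p = 0.0071), which called 1.16% of 35791 genes higher and 0.559% lower.

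PCDHA3 was the one variable alpha gene with a substantial level. It had HAP1 counts of 96, 98 and 147 and HELLS KO counts of 34, 30 and 85. The groups did not overlap in CPM, at 6.67 ± 0.506 (SD, n = 3) and 2.64 ± 0.744 CPM. Its log2 difference was -1.32 ± 0.28 (SE) with an adjusted p of 0.069, and it fell with the replicate block (adjusted p = 0.023) and by DESeq2 (adjusted p = 0.0015). The other 12 variable alpha genes and the pseudogene PCDHA14 did not pass the filter. Together with PCDHAC1 these 14 genes never exceeded 31 counts in a library. PCDHA6, picked after its values were seen, ran the other way, with HAP1 counts of 0, 0 and 4 and HELLS KO counts of 4, 6 and 18. PCDHA6 was not called by DESeq2 (adjusted p = 0.56) or by edgeR without the filter (adjusted p = 0.51).

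Per kilobase of exon that no other gene covers, PCDHAC2 stood highest among alpha genes in HAP1, at 2.62 ± 0.548 (SD, n = 3) CPM per kb. PCDHA3 followed at 1.85 ± 0.141 and PCDHA2 at 0.253 ± 0.136, the last within the spread of PCDHAC1 (0.201 ± 0.133). In HELLS KO PCDHA3 stood highest, at 0.734 ± 0.207, while PCDHAC2 was at 0.0797 ± 0.117. The calls were sensitive to single libraries. Without HAP1 replicate 1 or HELLS KO replicate 1 no alpha gene was called, with PCDHAC2 at adjusted p of 0.071 and 0.057. Without HELLS KO replicate 2, the highest of its group with 10 counts, PCDHAC2 fell by 7.23 on the log2 scale, and without HELLS KO replicate 3 PCDHA3 was also called.

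The 250 bases before the start of PCDHAC2 (chr5:140966226-140966475, plus strand) are shown because this gene fell the most among tested members. Capitals mark CGCT or its reverse complement.
PCDHAC2: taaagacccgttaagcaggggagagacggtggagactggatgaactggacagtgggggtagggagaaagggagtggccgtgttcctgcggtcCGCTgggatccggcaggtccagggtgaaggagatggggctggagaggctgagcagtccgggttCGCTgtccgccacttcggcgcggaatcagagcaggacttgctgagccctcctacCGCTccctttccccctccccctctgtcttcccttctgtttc

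It holds 13 CG dinucleotides and 3 CGCT. For PCDHA3 no promoter is shown.

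In the beta cluster 3 genes rose and none fell, and the most abundant gene was not called. PCDHB2 (chr5:141094606-141098703) had HAP1 counts of 38, 44 and 96 and HELLS KO counts of 172, 166 and 429. The lowest HELLS KO library was well above the highest HAP1 library in CPM, at means of 3.29 ± 0.669 (SD, n = 3) and 13.7 ± 3.41 CPM. PCDHB2 rose by 2.05 ± 0.27 (SE) on the log2 scale (adjusted p = 0.010). Between same-numbered libraries the ratio of HELLS KO to HAP1 was 4.42, 3.63 and 4.40. It was the only one of the 8 called members that kept its call with each of the 6 libraries left out in turn. PCDHB2 shared 43.9% of its annotated exon bases with other genes, including the antisense gene PCDHB1-AS1, which had at most 2 counts in any library.

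PCDHB15, the last beta gene, had HAP1 counts of 14, 10 and 27 and HELLS KO counts of 76, 50 and 137. PCDHB15 rose by 2.32 ± 0.33 (adjusted p = 0.013), with ratios between same-numbered libraries of 5.31, 4.81 and 5.0. PCDHB12 had HAP1 counts of 10, 8 and 16 and HELLS KO counts of 38, 32 and 87 and rose by 2.10 ± 0.34 (adjusted p = 0.023). PCDHB15 kept its call in 3 of the 6 fits that left out a library, and PCDHB12 in none. For both genes every HELLS KO library exceeded every HAP1 library, but PCDHB12 passed the filter through HELLS KO alone, which favours this. PCDHB4, nearly silent in HAP1 with 2, 0 and 13 counts, had 17, 30 and 92 in HELLS KO. The log2 difference of PCDHB4 was 3.16 ± 0.86 with an adjusted p of 0.21, and it rose with the replicate block (adjusted p = 0.012).

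PCDHB5 was the highest beta gene in both genotypes, at 5.03 ± 1.22 (SD, n = 3) CPM per kb of own exon in HAP1 and 6.62 ± 1.71 in HELLS KO. PCDHB5 had HAP1 counts of 179, 173 and 449 and HELLS KO counts of 207, 277 and 588, the groups overlapped in CPM, and the log2 difference was 0.39 ± 0.26 (adjusted p = 1). PCDHB8 and PCDHB2 came next in HAP1, at 1.44 ± 0.372 and 1.43 ± 0.291 CPM per kb, and these did not differ beyond their spread. In HELLS KO PCDHB2 stood at 5.95 ± 1.48, within the spread of PCDHB5. PCDHB15 came next at 1.33 ± 0.314, within the spread of PCDHB16 (1.18 ± 0.293). PCDHB8 itself had a log2 difference of -0.77 ± 0.41 (adjusted p = 1).

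PCDHB10 was the tested beta gene with the lowest difference, from 20, 13 and 46 counts in HAP1 to 5, 11 and 15 in HELLS KO. The groups did not overlap in CPM, but the log2 difference of -1.31 ± 0.46 had an adjusted p of 0.46. PCDHB10 passed the filter through HAP1 alone, which favours higher HAP1 values. PCDHB1, a divergent gene apart from the rest of its cluster, had HAP1 counts of 0, 0 and 0 and HELLS KO counts of 0, 2 and 0. Of the 15 tested beta genes, 8 had all HELLS KO libraries above all HAP1 libraries and 1 had them below, where 4.99% and 5.09% of the 17925 genes did. Of these 8, 4 (PCDHB4, PCDHB6, PCDHB11 and PCDHB12) passed the filter through HELLS KO alone. That favours higher values there, and nothing is read from this count. The beta count was 1 in place of 3 when replicate 1 of either genotype or replicate 2 of HAP1 was left out, and 2 when any other library was.

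The windows before PCDHB4 (chr5:141121568-141121817) and PCDHB10 (chr5:141192103-141192352), both on the plus strand, are shown because these genes had the highest and lowest log2 differences among tested beta genes. Capitals mark CGCT or its reverse complement.
PCDHB4: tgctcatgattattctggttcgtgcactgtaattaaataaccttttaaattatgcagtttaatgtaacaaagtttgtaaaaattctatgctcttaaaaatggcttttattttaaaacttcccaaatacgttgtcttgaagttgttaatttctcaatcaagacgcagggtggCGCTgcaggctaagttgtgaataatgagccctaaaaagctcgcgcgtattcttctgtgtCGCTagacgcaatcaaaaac
PCDHB10: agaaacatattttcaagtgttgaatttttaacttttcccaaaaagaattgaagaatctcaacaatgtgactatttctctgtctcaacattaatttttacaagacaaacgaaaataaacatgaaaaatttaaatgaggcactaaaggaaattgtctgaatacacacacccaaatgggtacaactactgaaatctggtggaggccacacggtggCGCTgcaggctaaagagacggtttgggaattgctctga

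Both carry the beta core in the same orientation. The window of PCDHB4 holds 9 CG dinucleotides and that of PCDHB10 holds 4.

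In the gamma cluster 4 A and B genes rose, and PCDHGC3, the abundant C-type gene, missed the threshold without the replicate block and fell with it. All 4 risen genes passed the filter through HELLS KO alone, and of the 7 gamma genes that passed in both genotypes none rose without the block and 3 did with it. PCDHGC3, a C-type gene widely used outside neurons and known for promoting dendrite arbors, had HAP1 counts of 261, 236 and 552 and HELLS KO counts of 26, 76 and 168. All HELLS KO libraries lay below all HAP1 libraries in CPM, at means of 4.67 ± 2.62 (SD, n = 3) and 19.5 ± 3.09 CPM. The log2 difference of PCDHGC3 was -2.05 ± 0.44 (SE) with an adjusted p of 0.078, and it fell with the replicate block (adjusted p = 0.0040) and by DESeq2 (adjusted p = 6.2e-05). Without HELLS KO replicate 1, its lowest library, the log2 difference was -1.67 with an adjusted p of 0.046. In the other 5 fits that left out a library PCDHGC3 was not called, with adjusted p up to 0.3, nor was it called with replicates 1 and 2 only. PCDHGC4, needed in mice for neuron survival, had HAP1 counts of 0, 2 and 4 and HELLS KO counts of 0, 0 and 5, and PCDHGC5 had 4, 3 and 2 against 0, 0 and 2. Both did not pass the filter.

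PCDHGC3 held 39.2%, 43.0% and 35.8% of all gamma counts in the HAP1 libraries. In HELLS KO it held 4.13% (95% exact binomial interval 2.72 to 6.0), 10.6% (8.47 to 13.1) and 8.82% (7.58 to 10.2). These intervals cover counting error only and are too narrow if mates were counted singly, and the lowest bound in HAP1 was 33.4%. Gamma members at 0.5 CPM or more numbered 10, 10 and 13 in HAP1 and 18, 21 and 19 in HELLS KO, so that more genes shared the gamma counts in every HELLS KO library. For beta these numbers were 14, 15 and 14 against 13, 15 and 17, and for alpha 4, 3 and 6 against 2, 3 and 2.

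**Figure D2:**
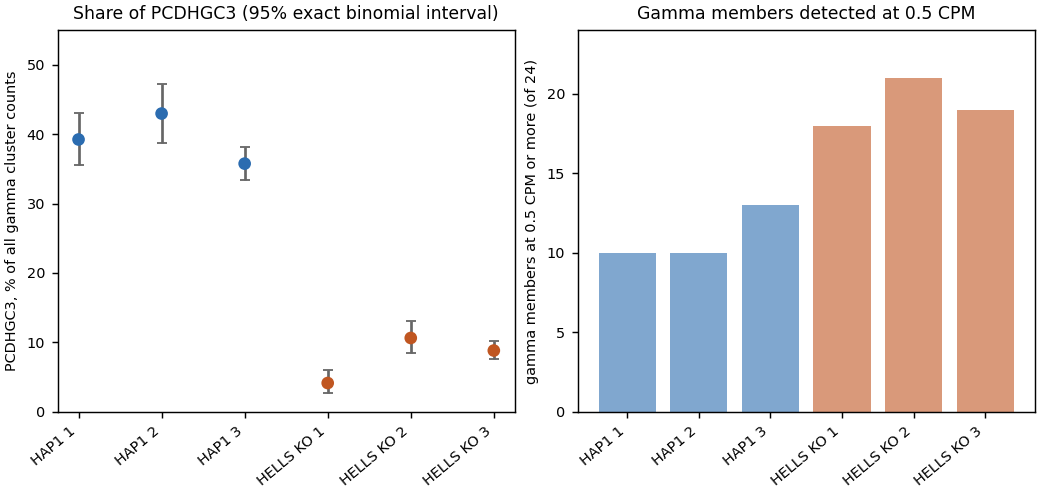
Makeup of the gamma cluster in each library. The left panel gives PCDHGC3 as a percentage of all gamma counts with its 95% exact binomial interval, and the right panel the number of the 24 gamma members at 0.5 CPM or more, with HAP1 in blue and HELLS KO in orange. PCDHGC3 lies between 35.8% and 43.0% in HAP1 and between 4.13% and 10.6% in HELLS KO.

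PCDHGB5 (chr5:141397947-141512975) was the only risen gamma gene without a count in HAP1, and it kept its call in 4 of the 6 fits that left out a library. It had HAP1 counts of 0, 0 and 0 and HELLS KO counts of 32, 28 and 100. Against a floor of 3 counts over the HAP1 group PCDHGB5 was at least 52.1-fold higher (adjusted p = 0.013). With a floor of 6 counts, as for mates counted singly, the bound for PCDHGB5 is 26.05-fold. PCDHGB4, its upstream neighbor of the same type, had HAP1 counts of 2, 2 and 2 and HELLS KO counts of 14, 29 and 59 and rose by 3.87 ± 0.57 (adjusted p = 0.014). PCDHGB4 shared 64.4% of its exon bases with other genes, PCDHGA8 among them, and 26.1% of the 31-base stretches in its own exon bases also occurred in other genes (24.9% for PCDHGB5).

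PCDHGA2 had HAP1 counts of 6, 2 and 4 and HELLS KO counts of 24, 22 and 63 and rose by 3.0 ± 0.52 (adjusted p = 0.030). PCDHGA7 had HAP1 counts of 6, 2 and 9 and HELLS KO counts of 24, 26 and 69 and rose by 2.7 ± 0.48 (adjusted p = 0.034). PCDHGA2 kept its call in 1 of the 6 fits that left out a library, and PCDHGA7 in none. For these genes, as for PCDHGB4 and PCDHGB5, every HELLS KO library lay above every HAP1 library. In each of them every HAP1 library was below the filter level, so this had to be so and nothing is read from it. PCDHGB6 had HAP1 counts of 10, 0 and 1 and HELLS KO counts of 51, 50 and 102, with a log2 difference of 4.0 ± 0.91 (adjusted p = 0.10). It rose with the replicate block (adjusted p = 0.014), and without HAP1 replicate 1 the log2 difference of PCDHGB6 was 6.83 (adjusted p = 0.0077).

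PCDHGB2, PCDHGA5 and PCDHGA6 also rose with the block, at adjusted p of 0.012, 0.039 and 0.0086. PCDHGA6 was the most abundant of these, with HAP1 counts of 25, 18 and 71 and HELLS KO counts of 91, 58 and 171 and a log2 difference of 1.50 ± 0.38 (adjusted p = 0.16 without the block). Called genes were thus of both the A and the B type. Without HELLS KO replicate 2 no gamma gene was called higher. The count was 1 when replicate 2 of HAP1 or replicate 1 or 3 of HELLS KO was left out, 2 without HAP1 replicate 3 and 3 without HAP1 replicate 1.

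Some gamma genes had small differences. PCDHGA10, the most abundant gamma A gene, had HAP1 counts of 206, 181 and 505 and HELLS KO counts of 146, 138 and 396. The groups overlapped and the log2 difference was -0.44 ± 0.29 (adjusted p = 1). PCDHGA1, the first gamma gene, had HAP1 counts of 18, 12 and 28 and HELLS KO counts of 12, 18 and 30, a log2 difference of 0.01 ± 0.36 that changed sign under other settings. Per kilobase of own exon, HAP1 ranked PCDHGC3 (6.0 ± 0.949 CPM per kb, SD, n = 3) above PCDHGA10 (3.64 ± 0.946) and PCDHGA11 (0.718 ± 0.233). PCDHGA11 was within the spread of PCDHGB7 (0.592 ± 0.196). HELLS KO ranked PCDHGA10 (2.69 ± 0.831) first, then PCDHGB2 (1.57 ± 0.767) and PCDHGC3 (1.44 ± 0.805). The last 2 did not differ beyond their spread from each other or from PCDHGB1 (1.13 ± 0.34).

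Along the chromosome, the gamma genes with higher values were neighbors. From PCDHGA2 to PCDHGB6, over 69 kb between start sites, all 12 tested genes had a log2 difference of at least 1, and the 2 untested genes in between, PCDHGA3 and PCDHGA8, had at most 25 counts. The run was found after the values were seen, it was not tested, and many of its genes passed the filter through HELLS KO alone. The 5 tested genes after it included PCDHGA10 and PCDHGC3, and one of them, PCDHGA12, had a difference over 1 (1.77 ± 0.66, adjusted p = 0.56). Over all 19 gamma A and B genes, tested or not, 17 had a higher mean CPM in HELLS KO, the exceptions being PCDHGA10 and PCDHGB7. Of the 17925 genes tested, 9328 had a log2 difference above 0. Among the 17, PCDHGA3 and PCDHGA8 had HAP1 counts near the limit that a count of 0 allows. PCDHGA1 had almost equal means, at 1.102 CPM in HAP1 and 1.106 in HELLS KO. PCDHGA1, PCDHGA3 and PCDHGA8 thus give no clear direction. Of the C-type genes, PCDHAC1, PCDHAC2 and PCDHGC3 had a lower mean, and the counts of PCDHGC4 and PCDHGC5, near the limit that a count of 0 allows, give no direction.

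The 250 bases before PCDHGB5 (chr5:141397697-141397946) and PCDHGC3 (chr5:141475716-141475965), on the plus strand, are shown for the highest and lowest gamma differences. Capitals mark CGCT or its reverse complement.
PCDHGB5: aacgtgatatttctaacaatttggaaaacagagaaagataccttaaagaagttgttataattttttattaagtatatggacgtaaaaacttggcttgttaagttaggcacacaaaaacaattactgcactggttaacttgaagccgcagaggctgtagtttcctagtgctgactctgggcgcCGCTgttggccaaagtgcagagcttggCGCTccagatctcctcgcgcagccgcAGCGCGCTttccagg
PCDHGC3: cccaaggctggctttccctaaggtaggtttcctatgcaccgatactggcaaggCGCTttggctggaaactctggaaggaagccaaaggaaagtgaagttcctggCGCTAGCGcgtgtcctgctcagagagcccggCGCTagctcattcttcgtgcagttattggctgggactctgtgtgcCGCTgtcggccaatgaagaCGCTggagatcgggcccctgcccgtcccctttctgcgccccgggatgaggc

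The window of PCDHGC3 holds 15 CG dinucleotides and 6 CGCT, counting both strands, and that of PCDHGB5 holds 11 and 4.

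Base content before the start separated the C-type genes from the rest. The 4 matched C-type promoters held between 13 and 18 CG dinucleotides, with 57.6% to 63.2% G and C. The 43 matched variable promoters held between 2 and 14, with 30.0% to 48.8% G and C, against a median of 11 and 58% over all 35116 RefSeq promoters. Among the 30 tested members with a promoter, PCDHAC2 and PCDHGC3 had the highest G and C share, and the 28 others, at 48.8% or less, held all those that rose with the block. PCDHA3, a variable alpha gene that fell with the block, had no matched promoter and is not among the 30. The 12 members that rose with the block had a median of 6 CG dinucleotides (range 4 to 14), the same as the 6 of all matched members.

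**Figure D3:**
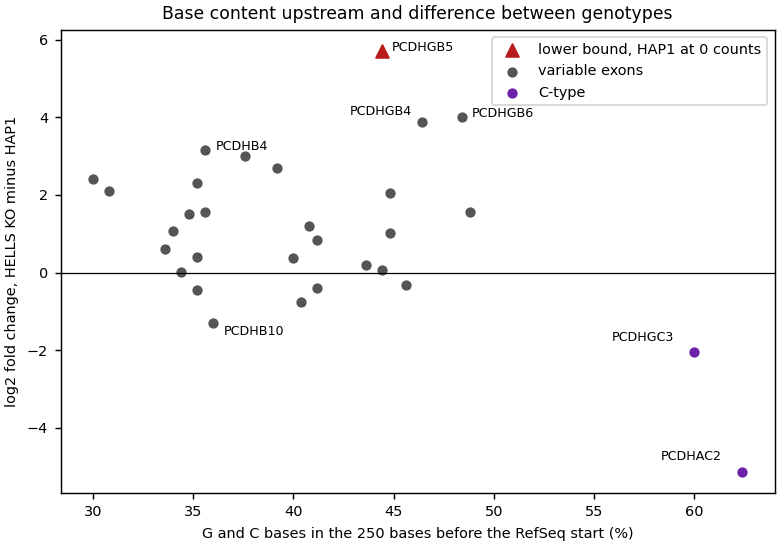
G and C share of the 250 bases before the RefSeq start against the log2 difference, HELLS KO minus HAP1, for 30 tested members. The 2 purple C-type genes stand alone at 60% or more with negative differences, and the 28 others lie between 30% and 48.8% with differences of both signs. The triangle is the lower bound of PCDHGB5. PCDHA3, which fell with the replicate block, had no matched promoter and is not shown.

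Summed levels were also read by cluster and class. The alpha sum was 20.04, 15.71 and 19.97 CPM in HAP1 and 4.055, 4.761 and 5.75 in HELLS KO, with no overlap. Its C-type share went from 9.39 ± 2.23 (SD, n = 3) to 0.261 ± 0.383 CPM, and the variable alpha genes from 9.18 ± 0.674 to 4.59 ± 0.930 CPM. PCDHAC2 made up most of the C-type share, at means of 8.56 CPM in HAP1 and 0.261 in HELLS KO. PCDHA3 made up most of the variable sum, at 6.67 and 2.64 CPM. The beta sum was 39.0, 37.8 and 50.8 CPM in HAP1 and 58.2, 64.1 and 87.2 in HELLS KO, also without overlap. PCDHB2 made up 6.86% to 8.46% of beta counts in HAP1 and 18.1% to 20.3% in HELLS KO.

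The gamma sum overlapped between genotypes, at 46.8, 39.9 and 64.3 CPM in HAP1 and 43.2, 50.1 and 78.2 in HELLS KO. Within it the A and B genes summed to 27.92, 22.33 and 40.6 CPM in HAP1 and 41.17, 44.04 and 70.56 in HELLS KO, so that the lowest HELLS KO library was just above the highest HAP1 library. The C-type genes summed to 18.6, 17.5 and 23.3 against 1.79, 5.32 and 7.19 CPM. Nearly all of this was PCDHGC3, at means of 19.5 CPM in HAP1 and 4.67 in HELLS KO. Replicate 3 was the highest of its genotype in the beta and gamma sums. The sums were given no test. In bulk RNA, fewer cells with a transcript and less of it per cell cannot be told apart.

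**Figure D4:**
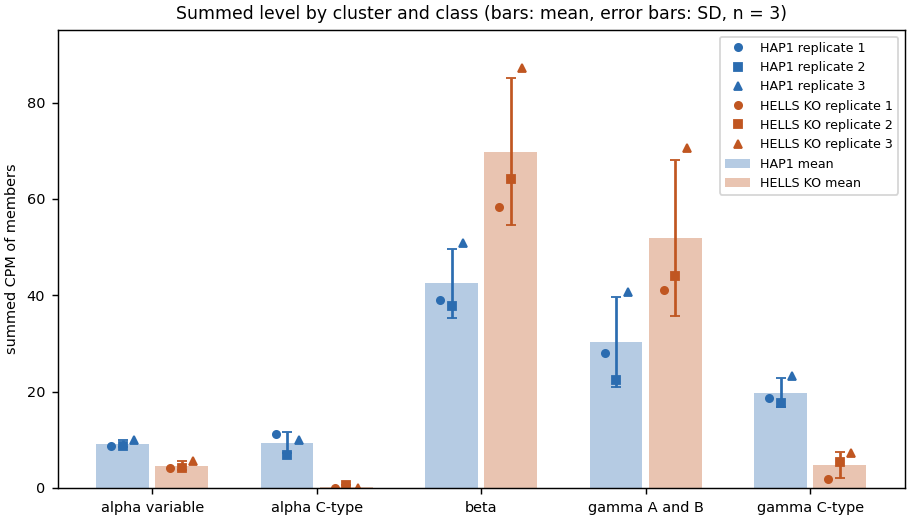
Summed CPM of members by cluster and class, with HAP1 in blue and HELLS KO in orange. Bars are means, error bars the SD of 3 libraries and marks the libraries. Alpha and gamma C-type sums are lower in every HELLS KO library, while beta and gamma A and B sums are higher than in any HAP1 library. The C-type sums are mostly PCDHAC2 in alpha and PCDHGC3 in gamma.

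Of 87 other genes within 1 Mb of the cluster, 39 were tested, 1 rose and none fell, where 1.50% and 0.720% of all genes did. At an unadjusted p under 0.05, 1 was higher and 2 were lower, and the median log2 difference was -0.03. TAF7, a subunit of the general transcription factor TFIID lying between the beta and gamma clusters, had HAP1 counts of 1484, 1466 and 2632 and HELLS KO counts of 1529, 1531 and 2453, a difference of -0.04 ± 0.10. The risen neighbor was SLC35A4, a member of the nucleotide sugar transporter family, with HAP1 counts of 2, 0 and 2 and HELLS KO counts of 18, 16 and 42. It passed the filter through HELLS KO alone, with every HAP1 library below the filter level, and so had to be higher there. SLC35A4 rose by 4.04 ± 0.66 (adjusted p = 0.022) and was called in none of the 6 fits that left out a library.

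Genes that shape or silence the cluster were read from a list of 25, all tested. None of these genes of cohesin, DNA methylation and heterochromatin was called by edgeR with or without the block or by DESeq2, where edgeR called 1.50% of all genes higher and 0.720% lower. At an unadjusted p under 0.05 there were 0 of the 25, and of all 17925 genes 589 were higher and 592 lower. With shares this small over all genes, a list of 25 would hold few calls in any case. CTCF, which binds these promoters, had a log2 difference of 0.07 ± 0.11, and SMCHD1, a silencer of the cluster, one of 0.09 ± 0.30. The DNA methyltransferases DNMT1, DNMT3A and DNMT3B had differences of -0.03 ± 0.12, 0.13 ± 0.15 and -0.10 ± 0.13. The signs for SMCHD1 and DNMT1 changed when single libraries were left out.

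Genes that act with the proteins were not called either. Of all 17925 genes, edgeR called 1.50% higher and 0.720% lower. At an unadjusted p under 0.05, 589 were higher and 592 lower. Among 15 cytoplasmic partners, none was called by edgeR with or without the block or by DESeq2, and 1 had an unadjusted p under 0.05. That gene was PTK2B, a kinase bound by the shared cytoplasmic part of alpha and gamma proteins, with a difference of -0.66 ± 0.20 (adjusted p = 0.29), and it was named after its value was seen. None of 7 genes for shedding and gamma-secretase cleavage was called by either tool, and 0 had an unadjusted p under 0.05. With these shares over all genes, lists of 15 and 7 would hold few calls in any case.

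Protocadherins outside the clusters were compared in the same fit. Of 13 non-clustered genes 9 were tested, none rose and 1 fell, where 1.50% and 0.720% of all genes did, and the median was -0.16. PCDH11X, an X-linked protocadherin, had HAP1 counts of 63, 54 and 209 and HELLS KO counts of 2, 2 and 18 and fell by 3.90 ± 0.66 (adjusted p = 0.027). Its call was kept in 3 of the 6 fits that left out a library, with log2 differences from -5.30 to -3.43. With limma at either pseudocount the call was lost. PCDH11X passed the filter through HAP1 alone, which favours higher HAP1 values. Only replicate 3 of HELLS KO reached the filter level, at 0.739 CPM. PCDH7 had a difference of -2.06 ± 0.43 (adjusted p = 0.066) and fell with the block (adjusted p = 0.00077). Whether these genes and the clusters differ from each other was not tested.

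Marker lists for other cell types were read beside these results. Over the 17925 genes tested by edgeR, 1.50% rose and 0.720% fell, and lists this short would hold few calls in any case. At an unadjusted p under 0.05, 589 of all genes were higher and 592 lower. Of 12 neuron markers 7 were tested and none was called by edgeR with or without the block or by DESeq2, with 1 at an unadjusted p under 0.05. That gene was SYT1, a calcium sensor of synaptic vesicles, with HAP1 counts of 38, 36 and 61, HELLS KO counts of 86, 67 and 86 and a log2 difference of 0.85 ± 0.28 (adjusted p = 0.40). In SYT1 and in MAP2 (0.53 ± 0.24, adjusted p = 0.83) every HELLS KO library lay above every HAP1 library, 2 of 7 markers against 4.99% of all genes. The median over the 7 was -0.15. Their summed level was 40.4 to 46.0 CPM in HAP1 and 41.9 to 58.0 in HELLS KO, and the 5 untested neuron markers had at most 9 counts in a library, with ELAVL4 and SLC17A6 at 0. Of 12 myeloid leukaemia markers 3 were tested, and KIT, the stem cell factor receptor, fell by 2.90 ± 0.43 (adjusted p = 0.015), from 319, 270 and 933 counts in HAP1 to 32, 40 and 138. KIT kept its call in 4 of the 6 fits that left out a library. The summed level of the myeloid list was 22.6 to 41.6 CPM in HAP1 and 3.78 to 7.76 in HELLS KO, with KIT at means of 27.0 ± 10.4 (SD, n = 3) and 3.56 ± 1.85 CPM. The other tested markers were CD33, with HAP1 counts of 8, 8 and 17 and HELLS KO counts of 16, 2 and 19, and CD14, with 10, 18 and 24 against 14, 0 and 10, and neither was called. The 9 untested markers had at most 10 counts in a library, with SPI1 and FCGR3A at 0. The part of these differences in the protocadherin results was not tested.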

How the data were processed

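Total RNA of HAP1 and HELLS KO cells was made into stranded libraries and sequenced in pairs of 100 bases. The authors aligned reads to GRCh38 with STAR 2.7.3a, dropped duplicates and alignments of mapping quality under 20, and deposited raw counts per gene from featureCounts 2.0.6. The authors also deposited FPKM values, which were recomputed from the counts to within 0.1% for 100% of values and therefore add no measurement. Low counts (1 to 20) were even in 56.8% to 62.0% of genes. Annotation version, strand setting and the treatment of reads over several genes are not given in the sources used here.

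Every column was matched to its sample by the name in the sample's description. Members were found by matching Ensembl identifiers without version to GENCODE release 44 on GRCh38 (56321 of 60483 matched), which also gave exons. Genes were filtered with filterByExpr (10 counts at the median depth, 0.686 CPM, in 3 libraries and 15 in total), TMM-scaled and tested across all genes with edgeR 4.0.16 (glmQLFit and glmQLFTest, Benjamini-Hochberg adjustment) in R 4.3.3. Alternatives were DESeq2 1.42.0, limma 3.58.1 on log2(FPKM + 1) and log2(FPKM + 0.1), other scaling and filters, a batch term, a replicate block, and leaving out each library. The script was tested on simulated data. Same-numbered libraries of the genotypes deviated together (correlations 0.42, 0.20 and 0.78 over 17925 genes), and replicate 3 carries the same batch label in both, so the numbers were taken as pairs. Crossed numbers 1 and 2 also correlated (0.59 for HAP1 2 with HELLS KO 1, 0.33 for HAP1 1 with HELLS KO 2), so only replicate 3 stood apart from the others. No libraries were copies of each other (chi-square per gene at least 2.28). Genes named were HELLS, called members, those with the 3 highest levels per own exon base of each cluster (own bases of at least 500), the C-type genes and PCDHB1, CTCF, SMCHD1 and the DNA methyltransferases, and called genes of 6 lists: architecture and silencing, cytoplasmic partners, shedding and gamma-secretase, non-clustered protocadherins, neuron markers and myeloid leukaemia markers, plus neighbors within 1 Mb. All other genes named (among them TAF7, PCDHA13, PCDHGA1 and single markers) were chosen after their values were seen. The members and lists were chosen with earlier results of these data known. Sequences are RefSeq promoters on GRCh38.p14.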

Additional observations from a re-analysis of the deposited data

How the results depend on the processing

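Counts of calls moved with the processing, and the cause was not tested except where fewer libraries or genes entered by construction. Alpha genes called lower, 1 in the edgeR test, numbered 3 with DESeq2, 3 with DESeq2 and the block (added after seeing the data), 2 without the filter, 2 with replicates 1 and 2 only, and 0 where every library needed 10 counts. Beta genes called higher, 3, numbered 5 with DESeq2, 0 with limma on log2(FPKM + 1) and 1 on log2(FPKM + 0.1). Gamma genes called higher, 4, numbered 7 with DESeq2 and with DESeq2 and the block, 9 with the batch term, 1 with replicates 1 and 2 only, 0 where every library needed 10 counts, and 0 and 2 with limma at the larger and smaller pseudocount. Gamma genes called lower, 0, numbered 1 with DESeq2, with DESeq2 and the block, with the batch term and without the filter. The replicate block took same-numbered libraries as pairs, although crossed numbers 1 and 2 also correlated. With it alpha lower was 2, beta higher 4, gamma higher 8 and gamma lower 1. Over all genes 363 rose and 267 fell with the block, against 269 and 129 without it. The batch term also gave 2 alpha genes lower. Leaving out single libraries gave 0 to 2 alpha genes lower, 1 to 2 beta genes higher, 0 to 3 gamma genes higher and 0 to 1 lower, 112 to 273 of all genes higher and 40 to 176 lower, 0 neighbors and 0 to 3 genes of the lists. Over all genes, DESeq2 gave 449 and 254, DESeq2 with the block 411 and 262, no filter 415 and 200, 10 counts in every library 29 and 48, and limma on log2(FPKM + 1) 146 and 52. Genes called lower numbered 285 with the batch term and 219 with replicates 1 and 2 only. The called neighbor was lost where every library needed 10 counts, with replicates 1 and 2 only and with limma on log2(FPKM + 1), at 0 each. List genes called, 2, numbered 3 with the block, the batch term, DESeq2 or no filter, 1 with limma on log2(FPKM + 1) and 0 where every library needed 10 counts. Signs reversed only for genes without a call. PCDHB9 was -0.43 with replicates 1 and 2 only and between -0.21 (without HELLS KO replicate 3) and 0.91 without single libraries. PCDHB13 was -0.20 with replicates 1 and 2 only and between -0.34 and 0.28 without single libraries, below 0 without HAP1 replicate 1 (-0.06) and HELLS KO replicate 3. PCDHGA1 was -0.01 with upper-quartile scaling and with DESeq2 and the block, -0.06 with replicates 1 and 2 only and between -0.13 and 0.17 without single libraries, with -0.09 without HELLS KO replicate 2 and 3. Without single libraries PCDHGB7 ranged from -0.83 to 0.04, PCDHGA11 from -0.02 to 0.50, SMCHD1 from -0.15 to 0.41 (-0.11 without HAP1 replicate 2) and DNMT1 from -0.11 to 0.02 (0.01 without HAP1 replicate 1). In the alpha cluster 14 of 16 genes were below the filter, and of these PCDHAC1 was called where the filter was dropped or DESeq2 was used.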
